A study of Mus musculus with 12 samples.

Results

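The genes that encode the proteins of the cytosolic ribosome were followed through the LSD1 and H3K4me2 peak lists of mouse liver. They were chosen by name among the protein-coding genes of GENCODE vM21 on the mm10 genome: Rpl or Rps followed by a number and an optional a, l or x, together with Rpsa, Rplp0, Rplp1 and Rplp2, with the S6 kinase genes left out. The rule found 82 of 21853 genes. Of these, 31 encode proteins of the small (40S) subunit and 51 encode proteins of the large (60S) subunit or its stalk. A total of 76 are core ribosomal protein genes and 6 are paralogs with an l in the name, namely Rpl3l, Rpl7l1, Rpl10l, Rpl22l1, Rpl39l and Rps27l. Rps3a1, Fau, Rpl36al and Rack1 also contribute proteins to the ribosome but fall outside the naming rule. The annotation gave no protein-coding gene named Rps4l.

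Every cell needs ribosomes, and the genes of the ribosomal proteins are among the most highly transcribed genes of the nucleus. Their promoters are short and compact, and their mRNAs begin with a run of pyrimidines, the terminal oligopyrimidine (TOP) tract, through which mTOR controls their translation. H3K4me2 is a dimethylated form of lysine 4 of histone H3 that flanks active start sites, where the DNA itself is often free of nucleosomes and therefore free of the mark. LSD1, encoded by Kdm1a, is a demethylase that removes methyl groups from H3K4.

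The study asked how LSD1 acts on genes of the liver. Liver chromatin was precipitated with an LSD1 antibody in wild-type C57BL/6 mice (2 libraries) and with an H3K4me2 antibody in control and in LSD1-LKO C57BL/6 mice (2 libraries each). Both H3K4me2 groups carried the floxed Lsd1 alleles, and mice a few weeks of age received AAV8-TBG-Cre (LSD1-LKO) or AAV8-TBG-GFP (control) through the tail vein. TBG is a promoter active in hepatocytes, so the deletion is limited to hepatocytes. The methods describe a high-fat diet after the injection, without saying whether it held for the mice of these libraries or for the wild-type mice, and nothing states that the libraries of a group came from different animals. The remaining libraries of the 12, labelled input, were the controls for peak calling.

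Each of the 3 deposited lists holds pairs of overlapping peaks, 1 from each of its 2 libraries, which are called here the first-listed and the second-listed library. Every entry joined a peak of each library, and the shared stretch was never under 50% of the peak listed first. The lists held 14584 entries for LSD1, 43891 for H3K4me2 in control liver and 50675 for H3K4me2 in LSD1-LKO liver. They give positions and enrichments but not the numbers of reads, so the depth of each library is unknown. A promoter was the stretch within 1 kb of any annotated start of a protein-coding transcript. The H3K4me2 covered length was the number of promoter bases inside listed peaks. The principal transcription start site (TSS) was that of the best-supported transcript, and a gap was a principal TSS outside every listed H3K4me2 peak with a listed peak within 1 kb on each side. The 13553 genes with an H3K4me2 promoter peak in either list, 79 of them ribosomal protein genes, are called marked genes. Unless stated otherwise, values refer to the first-listed libraries.

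Hepatocyte genes were marked in both H3K4me2 lists. Peaks lay at the promoters of 7 of 10 hepatocyte marker genes in control liver and of 10 of 10 in LSD1-LKO liver. Of 10 markers of other liver cells, 1 had a peak in control liver and 2 in LSD1-LKO liver, and Adgre1, Clec4f, Ptprc, Pecam1, Stab2 and Krt19 had none. The albumin gene Alb was among the hepatocyte genes with no listed promoter peak in control liver. The promoter of Kdm1a itself had no listed peak in control liver and 2 in LSD1-LKO liver, and H3K4me2 peaks do not check the deletion. In these bulk samples fewer cells with a mark and less of the mark per cell cannot be told apart.

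The start sites of the ribosomal protein genes whose H3K4me2 patterns are described in most detail are shown first, so that the bases inside or beside the gaps can be read. These are 30 bases of each on the transcribed strand, 15 before the principal TSS and 15 from it on, read from the RefSeq copy of GRCm38 (mm10). Capitals mark the pyrimidine tract, a C followed by at least 4 further C or T, that begins nearest to the TSS.
Rps21, chr2:180257362-180257391, plus strand: cttaccgaggacccgCCCTCCTgcccaata
Rpl34, chr3:130730384-130730413, minus strand: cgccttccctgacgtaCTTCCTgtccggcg
Rplp1, chr9:61914528-61914557, minus strand: cgcgcaggcgtatatgatCTTTTCCTCagc
Rps18, chr17:33955663-33955692, minus strand: atataagacttatacgtcaCTTCCgctctc
Rps27, chr3:90213637-90213666, minus strand: aggatttccgctttcgCTCCTTTCCggcgg
Rps16, chr7:28350637-28350666, plus strand: acacgtCCCCTCTCaggcttcgacgtcagc
Rps28, chr17:33824548-33824577, minus strand: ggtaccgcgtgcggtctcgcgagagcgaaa
Rpl23, chr11:97782423-97782452, minus strand: gaggtccggtcacgtggctgagtgggcggg
In Rps21 the tract begins at the annotated TSS itself. Rps28 and Rpl23, the genes with a listed H3K4me2 promoter peak in only 1 of the groups, have no such tract within 15 bases of the annotated TSS.

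A tract of at least 5 pyrimidines led by a C began within 15 bases of the principal TSS in 46 of the 82 genes (56.1%), against 41.0% of all protein-coding genes. The tract began exactly at the annotated TSS in 8 genes (9.76%), against 2.27% of marked genes. In the window from 250 bases before to 50 bases after the TSS, searched on both strands, the ETS motif CCGGAAG, which GABP binds, occurred in 25 of the 82 genes (30.5%), against 11.2% of all and 16.6% of marked genes. The YY1 motif AAGATGG occurred in 11 (13.4%), against 6.31% of all and 6.85% of marked genes. The Sp motif GGGCGG occurred in 43 (52.4%), against 45.4% of all and 63.2% of marked genes, and TATAAA occurred in 10 (12.2%), against 12.6% of all and 7.44% of marked genes. These are counts of letters and not of bound sites. The genes were also short: their median length was 3328.5 bp, against 24223 bp for marked genes, and 29 of them (35.4%) held an annotated snoRNA gene on the same strand, against 1.17% of all genes.

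LSD1 peaks lay at the promoters of 28 of the 82 genes (34.1%), against 23.6% of all protein-coding genes and 37.6% of marked genes. The share was thus above that of all genes and a little below that of marked genes. The mitochondrial ribosomal protein genes had an almost equal share, 27 of 78 (34.6%). LSD1 was listed at 12 of the 31 small-subunit genes and at 16 of the 51 large-subunit genes, including the paralogs Rpl22l1 and Rps27l. The peaks had a lower median enrichment than those at marked genes. The median fold enrichment over the control libraries was 2.83 in the first-listed and 3.31 in the second-listed LSD1 library, compared with 3.34 and 3.56 at marked genes. When all LSD1 entries were ranked by the mean −log10 p of both libraries, the median percentile of these 28 genes was 57.7, against 72.7 for marked genes with an LSD1 peak.

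Rpl7, a large-subunit protein gene, had the highest-ranked LSD1 peak among them, at the 97.6 percentile of the list, with fold enrichments of 4.56 and 6.63. Rps7, whose protein sits in the small subunit, followed at 89.4 with fold enrichments of 5.17 and 3.47. The paralog Rpl22l1 ranked at 86.5, although its fold enrichment was 2.00 in the first-listed and 5.93 in the second-listed library. Rpl37 and the paralog Rps27l both ranked at 85.9. Enrichment was higher in the second-listed library at Rpl7, Rpl22l1 and Rpl37 and in the first-listed library at Rps7 and Rps27l. The lowest-ranked peaks were those of Rpl27 at 10.7, Rpl36a at 13.6, Rpl4 at 16.1 and Rpl36 at 28.4. The Rpl27 peak had a fold enrichment of 2.55 in the first-listed library and was centred 1358 bp downstream of the principal TSS. Only 4 of the 82 genes, Rpl7, Rpl37a, Rplp1 and Rps7, kept an LSD1 peak when a −log10 p of 5 or more was required in both libraries (4.88%, against 5.49% of all and 8.81% of marked genes).

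The LSD1 peaks sat near the start sites. Of the 29 LSD1 promoter peaks at these genes, 18 (62.1%) covered the principal TSS, against 56.0% of LSD1 promoter peaks at all genes, and 27 (93.1%) were centred within 500 bp of it, against 73.9%. An overlap with a control H3K4me2 peak was found for 26 (89.7%, against 91.7%), and 23 overlapped an LSD1-LKO H3K4me2 peak (79.3%, against 90.2%). At the genes with a gap in the control list, 7 of 7 LSD1 peaks reached into the gap, and at the genes with a gap in the LSD1-LKO list 13 of 14 did. Over all genes these shares were 75.1% and 77.8%. The LSD1 peak of Rpl27a, 283 bp wide, lay wholly within the control gap of the first-listed library, and the second-listed control library had no gap there.

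**Figure D1:**
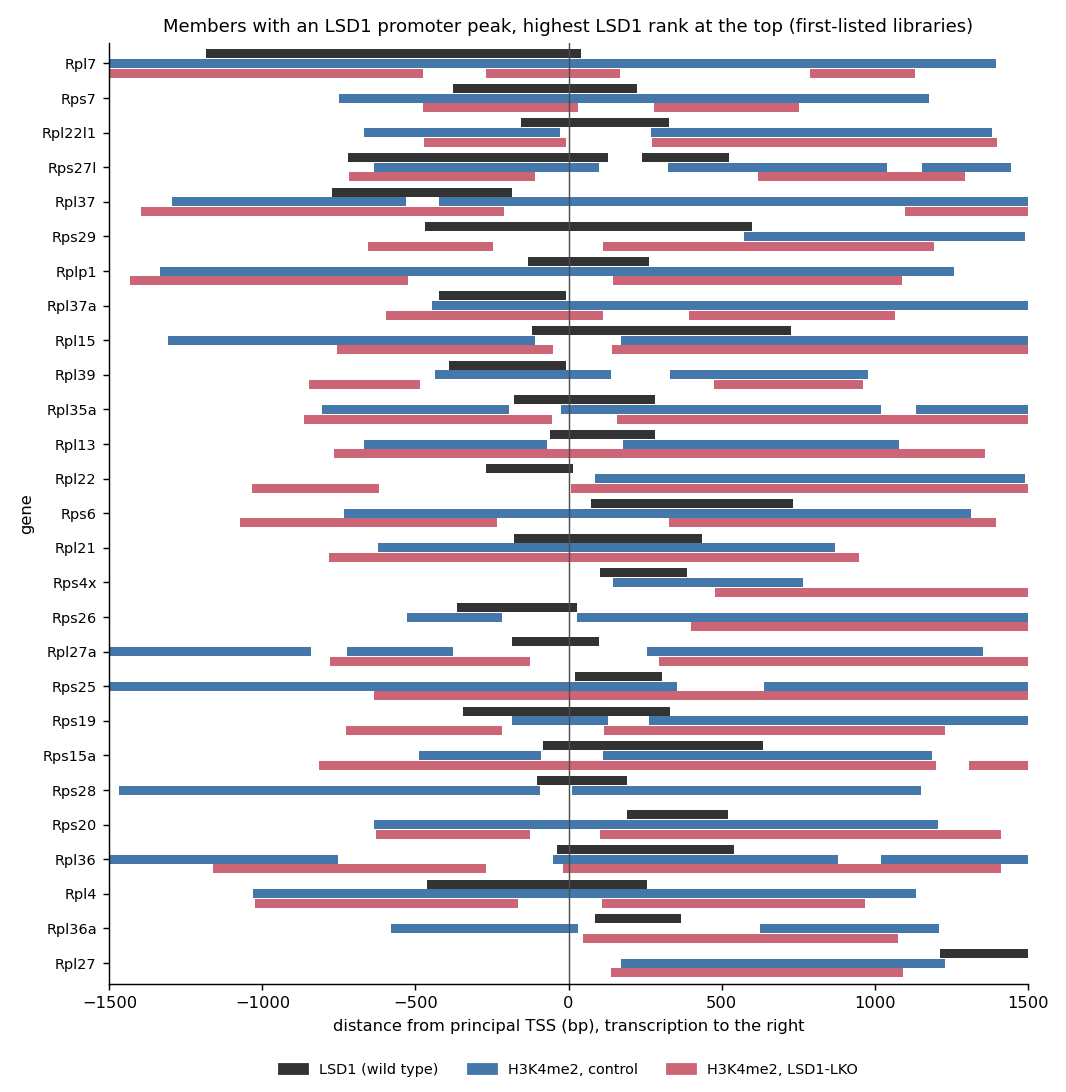
Map of 27 of the 28 ribosomal protein genes with an LSD1 promoter peak, from the highest-ranked (Rpl7) to the lowest-ranked (Rpl27). Bars are listed intervals of LSD1 (black), control H3K4me2 (blue) and LSD1-LKO H3K4me2 (red) in the first-listed libraries, drawn by distance in bp from the principal TSS with transcription to the right. Most LSD1 bars cross the TSS, Rps28 has no red bar and Rps29 has no blue bar over its TSS.

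H3K4me2 marked nearly all ribosomal protein promoters in both groups. A promoter peak was listed for 78 of 82 genes (95.1%) in control liver and for 78 of 82 in LSD1-LKO liver, against 58.8% and 58.9% of all protein-coding genes and 94.9% and 95.0% of marked genes. Of the 82, 77 had a peak in both lists. Rpl3l, Rpl10l and Rpl39l had none in either. These are the paralogs known from striated muscle (Rpl3l) and from testis (Rpl10l and Rpl39l), and the listed peak nearest to their principal TSS was 3418 bp or more away. The remaining paralogs, Rpl7l1, Rpl22l1 and Rps27l, were marked in both lists. With a −log10 p of 5 or more in both libraries, 70 genes kept a control peak and 63 an LSD1-LKO peak (47.4% and 44.6% of all genes).

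Rps28, a small-subunit protein gene, had a promoter peak in control liver only. Its covered length was 2048 bp and 1984 bp in the 2 control libraries and 0 bp in both LSD1-LKO libraries. The control peak that ranked highest there had fold enrichments of 5.39 and 7.58 and stood at the 90.2 percentile of the list. In LSD1-LKO liver the nearest listed interval was 3642 bp from the TSS in the first-listed and 3424 bp in the second-listed library. Rps28 shares its promoter with Ndufa7, a gene of mitochondrial complex I whose start lies within 1 kb. An LSD1 peak of low rank (37.3) covered the Rps28 TSS.

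Rpl23 showed the opposite pattern. This large-subunit protein gene had 0 bp in both control libraries and 1755 bp and 1859 bp in the LSD1-LKO libraries, with fold enrichments of 5.91 and 7.64 and a percentile of 96.8. The nearest control interval was 2859 bp from the TSS. Rpl23 had no LSD1 promoter peak. At both genes the 2 groups did not overlap in covered length, and the exact two-sided permutation test over the 4 libraries gave p = 0.333, the smallest value that 2 against 2 libraries allow. An entry needs peaks in both libraries, so the paired zeros are not independent observations. Of the 21853 genes, 676 (3.09%) were marked at the promoter in control liver alone and 696 (3.18%) in LSD1-LKO liver alone.

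Around the start site the ribosomal protein genes had a deeper dip in listed H3K4me2 than marked genes in general. In the first-listed control library the principal TSS lay inside a listed peak at 39 of the 82 genes (47.6%), against 38.6% of all and 62.2% of marked genes. At 500 bp downstream of the TSS the share was 90.2%, against 75.2% of marked genes. The second-listed control library had broader peaks and covered the TSS of 55 genes (67.1%, against 48.0% of all and 77.4% of marked genes). In LSD1-LKO liver the TSS was inside a peak at 24 genes (29.3%) in the first-listed and at 48 genes (58.5%) in the second-listed library. These shares were 33.3% and 47.9% among all genes and 53.7% and 77.2% among marked genes. With a −log10 p of 5 or more in both libraries, the TSS was covered at 33 genes (40.2%) in control and at 17 (20.7%) in LSD1-LKO liver, against 31.0% and 24.9% of all genes and 6771 and 5441 of the 13553 marked genes. Fewer ribosomal protein TSSs were thus covered in LSD1-LKO than in control liver in each of these readings. With 2 libraries a group and no read counts, the difference between groups was not tested across genes.

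**Figure D2:**
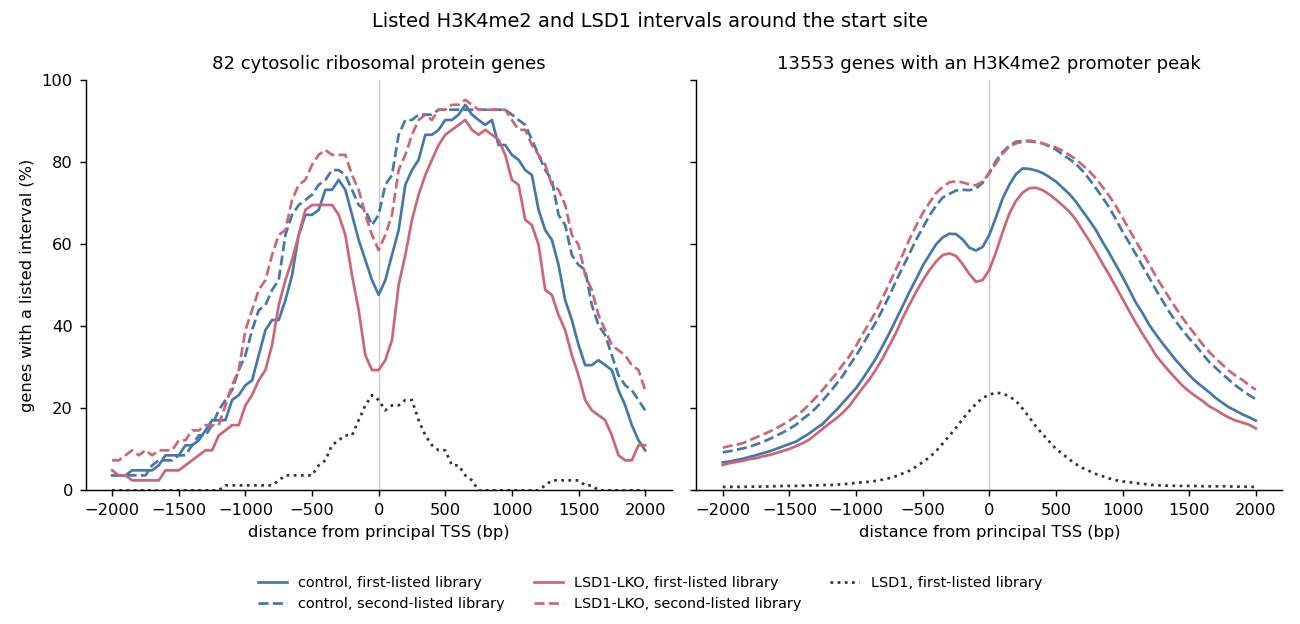
Share of genes (%) with a listed interval at each distance from the principal TSS, in steps of 50 bp, for the 82 ribosomal protein genes (left) and the 13553 marked genes (right). Solid and dashed lines are the first- and second-listed H3K4me2 libraries of control (blue) and LSD1-LKO (red) liver, and the dotted line is the first-listed LSD1 library. At the TSS the ribosomal protein curves drop to 47.6% and 67.1% in control and to 29.3% and 58.5% in LSD1-LKO liver, and the dip is shallower on the right.

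H3K4me2 gaps at the TSS were found in 27 of the 82 genes (32.9%) in the control list, against 10.5% of all protein-coding genes and 16.9% of marked genes. The LSD1-LKO list had a gap at 40 genes (48.8%), against 13.5% of all and 21.8% of marked genes. In the second-listed libraries there were 12 gaps in control and 21 in LSD1-LKO liver (3.72% and 3.96% of all genes, 5.99% and 6.39% of marked genes). Both libraries of a list showed the gap at 9 genes in control and at 17 genes in LSD1-LKO liver (2.86% and 3.09% of all genes, 4.62% and 4.99% of marked genes). The larger number in LSD1-LKO liver was not present among strong peaks. With a −log10 p of 5 or more in both libraries, 14 genes had a gap in control and 11 in LSD1-LKO liver. These compare with 5.34% and 5.07% of all genes and with 8.61% and 8.17% of marked genes. At this threshold fewer TSSs were also covered in LSD1-LKO than in control liver, as given above. Gaps were found in genes of both subunits, namely in 12 of 31 small-subunit and 15 of 51 large-subunit genes in control liver and in 17 and 23 of them in LSD1-LKO liver.

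**Figure D3:**
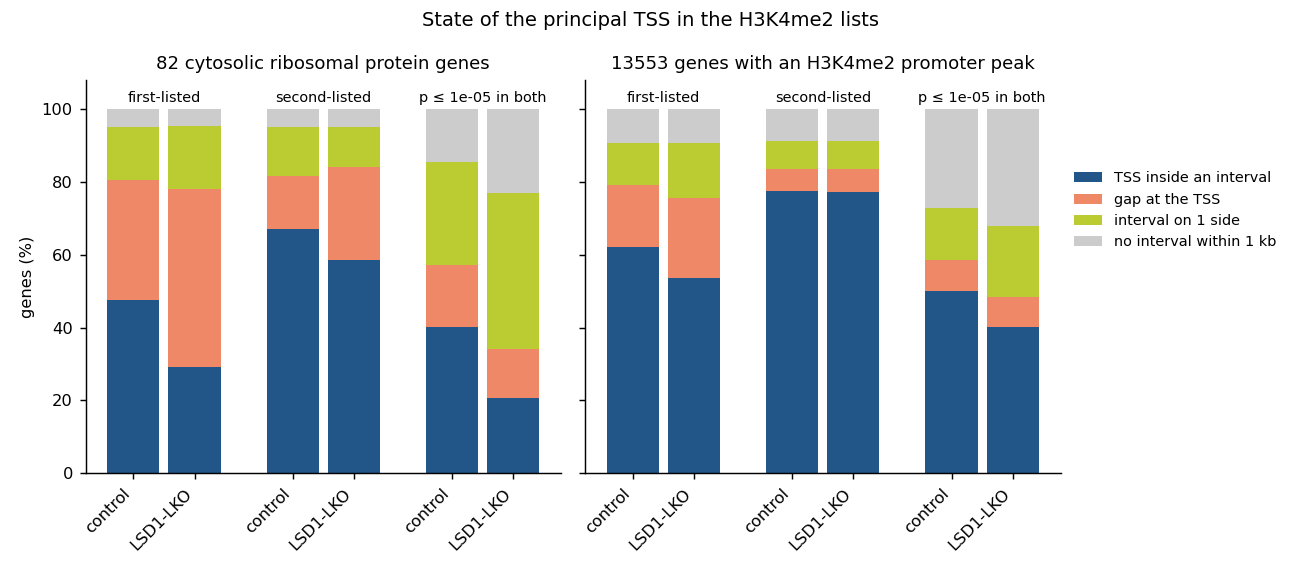
State of the principal TSS in the H3K4me2 lists as a share of genes (%), for the 82 ribosomal protein genes (left) and the 13553 marked genes (right). Pairs of bars are control and LSD1-LKO for the first-listed library, the second-listed library and peaks with p of 1e-05 or less in both libraries. The dark segment, a TSS inside a peak, is smaller in LSD1-LKO than in control in the 3 pairs on the left (47.6% to 29.3%, 67.1% to 58.5% and 40.2% to 20.7%).

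The same genes did not always carry the gap. A gap was present in both lists at 17 genes, in control alone at 10 and in LSD1-LKO alone at 23. Of all genes, 5.15% had a gap in both lists, 5.33% in control alone and 8.39% in LSD1-LKO alone. At 18 genes the TSS was covered in control and lay in a gap in LSD1-LKO liver, and at 7 genes the change ran the other way (7.12% and 3.80% of all genes). The median gap was 273 bp long in control and 402 bp in LSD1-LKO liver, against 297 bp and 347 bp at marked genes. The second-listed libraries had median gaps of 210 bp (control) and 227 bp (LSD1-LKO), against 263 bp and 262 bp at marked genes. In the first-listed control library the median upstream edge of a gap lay 123 bp and the median downstream edge 157 bp from the TSS. At marked genes the upstream edge was the farther one (169 bp against 109 bp). In the first-listed LSD1-LKO library the edges of the ribosomal protein genes were almost equally far, at 187 bp upstream and 190 bp downstream. At marked genes they lay at 181 bp and 136 bp.

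At Rpl28, Rpl7a, Rps16, Rps19 and Rps27l the TSS was covered in both control libraries and lay in a gap in both LSD1-LKO libraries. These 5 genes (6.1%) compare with 142 of all genes (0.65%, or 1.05% of marked genes). The reverse, a gap in both control libraries and a covered TSS in both LSD1-LKO libraries, was found at none of the 82 genes and at 66 of all genes (0.302%, or 0.487% of marked genes). Rps19, the gene most often mutated in Diamond-Blackfan anaemia, had LSD1-LKO gaps of 333 bp and 723 bp. In Rpl7a the gaps were 560 bp and 250 bp long, and in Rpl28 they were 462 bp and 169 bp. Rps16 had gaps of 266 bp and 178 bp, and Rps27l, a paralog induced by p53, of 728 bp and 164 bp. Of the 5, Rps19 and Rps27l had an LSD1 promoter peak.

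A gap in all 4 libraries was found at Rpl13a, Rpl15, Rpl26, Rps3 and Rps18 (6.1%, against 0.998% of all and 1.61% of marked genes). Rps18, a protein of the head of the small subunit, had gaps of 322 bp and 111 bp in control and of 547 bp and 297 bp in LSD1-LKO liver. Rps3, which lines the mRNA entry channel, had gaps of 229 bp and 144 bp in control and of 439 bp and 222 bp in LSD1-LKO liver. At both genes the LSD1-LKO gap was the longer one within each position of the lists, although the second-listed LSD1-LKO gap was shorter than the first-listed control gap. At Rpl15 the order was the reverse, with 280 bp and 388 bp in the control and 193 bp and 340 bp in the LSD1-LKO libraries. A covered TSS in all 4 libraries was found at 11 genes (13.4%), against 24.1% of all and 38.9% of marked genes.

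The longest gaps in the control list were those of Rpl10a (651 bp), Rpl27a (636 bp), Rps27a (577 bp), Rpl8 (569 bp) and Rpl26 (435 bp). All but Rpl26 were covered at the TSS in the second-listed control library. The longest gaps in the LSD1-LKO list were those of Rps10 (1068 bp), Rpl39 (962 bp), Rps27 (735 bp), Rps27l (728 bp) and Rpl26 (726 bp). The Rpl39 and Rps27l gaps were present in the second-listed LSD1-LKO library too, at 706 bp and 164 bp, and so was that of Rpl26 at 192 bp. Rps10 and Rps27 were covered there. Of the longest gaps, those of Rpl10a, Rpl27a, Rps27a, Rpl8, Rps10 and Rps27 were thus present in 1 library of the list.

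**Figure D4:**
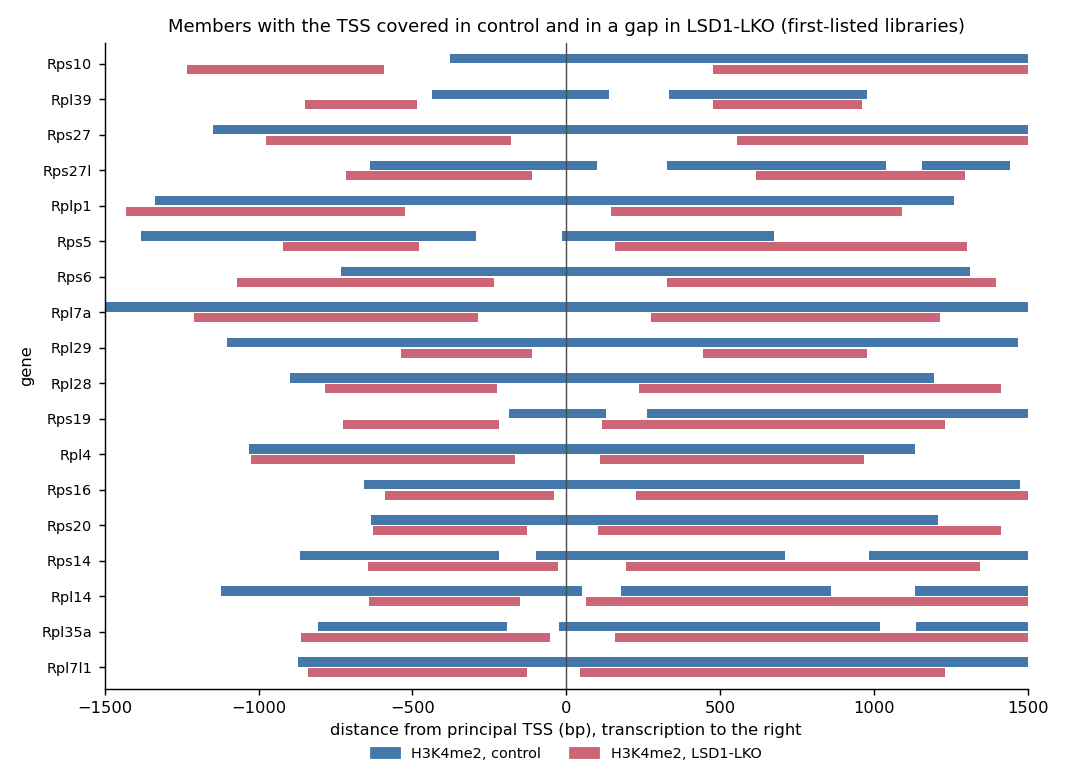
Map of the 18 ribosomal protein genes whose principal TSS was inside a control H3K4me2 interval (blue) and in a gap of the LSD1-LKO intervals (red), in the first-listed libraries, sorted from the longest LSD1-LKO gap (Rps10, 1068 bp) to the shortest (Rpl7l1, 173 bp). The axis gives the distance from the TSS in bp, with transcription to the right. Each red pair flanks the TSS that a blue bar crosses.

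The study's primers for GABPα ChIP-qPCR include a pair named for Rps21, which shows the stretch of chromatin that the assay covers. The forward primer is tatggtggatacgagtaccctgac and the reverse primer is agagcgcagaaaggaagtagctc, and on mm10 they enclose chr2:180257329-180257429. The product of 101 bp runs from 48 bp upstream to 52 bp downstream of the principal TSS and holds 1 ETS motif. In the first-listed control library 0 of its bases were inside an H3K4me2 peak and in the second-listed one 30 were. In LSD1-LKO liver 5 and 101 bases were. The gap of Rps21 was 337 bp and 205 bp long in the control libraries and 179 bp in the first-listed LSD1-LKO library, and the second-listed LSD1-LKO library covered the TSS. Its covered length was 1546 bp and 1796 bp in the control and 1822 bp and 2001 bp in the LSD1-LKO libraries, so the groups did not overlap (exact permutation p = 0.333, the smallest possible). Rps21 had no LSD1 promoter peak.

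Rpl10a, Rpl34, Rpl35a, Rps14 and Rps18 are counted among the mitochondrial genes in a gene list of the study, although their products work in the cytosol. Rpl35a alone of these had an LSD1 promoter peak. Rpl10a had 1015 bp and 2127 bp of covered length in control and 2046 bp and 2087 bp in LSD1-LKO liver, which overlap. The values of Rpl34 were 1656 bp and 2078 bp in the control and 1706 bp and 2058 bp in the LSD1-LKO libraries, and both lists had a gap in the first-listed library. At Rpl35a they were 2090 bp and 2360 bp in the control and 2215 bp and 2557 bp in the LSD1-LKO libraries. At each of these 3 genes the values of the groups overlapped. Rps14, which has several annotated starts, had 4654 bp and 5654 bp in the control and 3757 bp and 5608 bp in the LSD1-LKO libraries. Rps18 had 1693 bp and 1904 bp in the control and 1468 bp and 1718 bp in the LSD1-LKO libraries, and here too the groups overlapped.

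The covered length of the ribosomal protein promoters was described by its median over the 82 genes. This was 1626 bp in the first-listed and 1790 bp in the second-listed control library, and 1396 bp and 1824 bp in the LSD1-LKO libraries. The median difference, LSD1-LKO minus control, was −160.5 bp between the first-listed libraries and −4.5 bp between the second-listed ones, against −111 bp and 12 bp at marked genes. Between the first-listed libraries 52 genes had less covered length in LSD1-LKO liver and 27 had more, against 37.3% and 24.4% of all genes (60.1% and 39.4% of marked genes). Between the second-listed libraries 41 had less and 33 had more, against 26.2% and 32.0% of all genes (42.1% and 51.3% of marked genes). Which libraries were set side by side thus changed the size of the difference, and the lists do not say which belong together. Both LSD1-LKO libraries were below both control libraries at 13 genes (15.9%, against 10.7% of all and 17.3% of marked genes) and above them at 9 (against 9.02% of all and 14.6% of marked genes).

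The genes below control in all libraries included Rpl7a, Rpl30, Rpl35, Rpl39, Rps7, Rps9, Rps20, Rps23, Rps26 and Rps28. Those above control were Rpl5, Rpl18, Rpl23, Rpl36, Rpl38, Rplp0, Rps15a, Rps21 and Rps29. The lowest differences between the first-listed libraries, LSD1-LKO minus control, were those of Rps28 (−2048 bp), Rpl29 (−1509 bp), Rpl37 (−1104 bp), Rpl7 (−1092 bp) and Rps9 (−1080 bp). Of these, Rpl29, Rpl37 and Rpl7 had more covered length in the second-listed LSD1-LKO library than in the second-listed control library. Rpl7, the gene with the highest-ranked LSD1 peak, had 2398 bp and 1100 bp in the control and 1306 bp and 2436 bp in the LSD1-LKO libraries, and the groups overlapped. Rps9 had 1904 bp and 2082 bp in the control and 824 bp and 1824 bp in the LSD1-LKO libraries, with no overlap.

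The highest differences were those of Rpl18 (2291 bp), Rpl23 (1755 bp), Rpl10a (1031 bp), Rpl24 (983 bp) and Rps15a (977 bp). Rpl18, a large-subunit protein gene with a neighbouring start of Sphk2 within 1 kb, had 1635 bp and 1888 bp in the control and 3926 bp and 4504 bp in the LSD1-LKO libraries. It has several annotated starts, whose windows are added up. Within 1 kb of its principal TSS alone the groups overlapped, and the rest of the LSD1-LKO length lay at other starts. Rps15a had 1473 bp and 1986 bp in the control and 2450 bp and 2589 bp in the LSD1-LKO libraries. Over all starts the groups did not overlap at Rpl18 and Rps15a, and at Rpl10a and Rpl24 they did. Rpl24 had 656 bp and 1377 bp in the control and 1639 bp and 700 bp in the LSD1-LKO libraries. Rps29 was also without overlap, with 427 bp and 880 bp in the control and 1297 bp and 1530 bp in the LSD1-LKO libraries. For each gene without overlap the exact permutation p was 0.333.

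**Figure D5:**
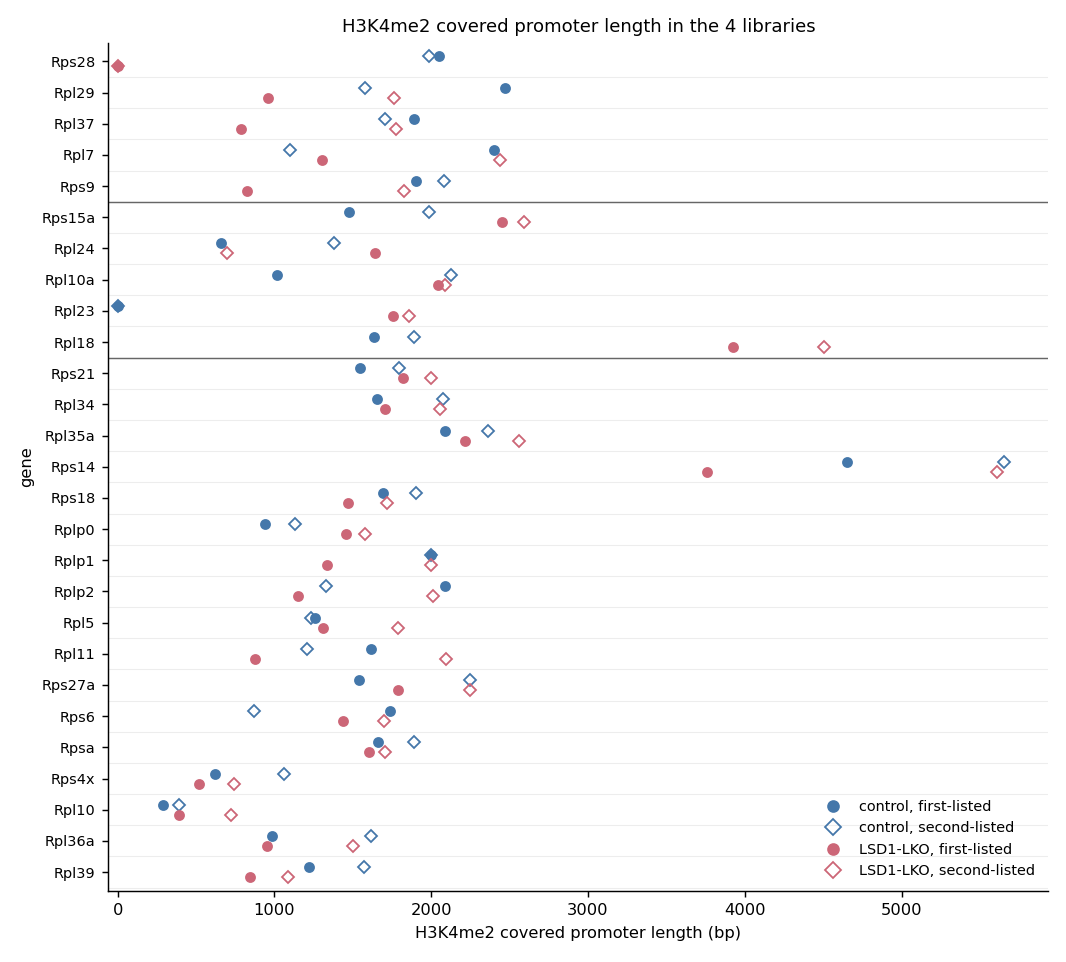
H3K4me2 covered promoter length (bp) in each of the 4 libraries for the 5 genes with the lowest and the 5 with the highest difference and 17 further named ribosomal protein genes, separated by the dark horizontal lines. Filled circles are first-listed and open diamonds second-listed libraries, in blue for control and red for LSD1-LKO. Rps28 has both red points at 0 and Rpl23 both blue points at 0, and Rpl18 has both red points to the right of the blue ones.

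The genes of the ribosomal stalk, which recruits the translational GTPases, had different values. Rplp0 had 942 bp and 1130 bp of covered length in control and 1456 bp and 1577 bp in LSD1-LKO liver, and its first-listed LSD1-LKO library had a gap of 429 bp. Rplp1 was covered over its whole window of 2001 bp in both control libraries and in the second-listed LSD1-LKO library, and had 1332 bp with a gap of 669 bp in the first-listed one. In Rplp2 the values were 2087 bp and 1327 bp in the control and 1150 bp and 2011 bp in the LSD1-LKO libraries. Only the values of Rplp0 separated the groups.

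Rpl5 and Rpl11 encode the proteins that bind the 5S rRNA and restrain MDM2 when ribosome assembly fails. Rpl5 had 1256 bp and 1232 bp in the control and 1308 bp and 1791 bp in the LSD1-LKO libraries. Rpl11 had 1617 bp and 1207 bp in the control and 873 bp and 2095 bp in the LSD1-LKO libraries. Rps27a, which is made as a fusion with ubiquitin, had 1541 bp and 2250 bp in the control and 1790 bp and 2250 bp in the LSD1-LKO libraries. The groups were apart at Rpl5 and overlapped at the other two. Rps6, the classical substrate of the S6 kinases, had 1734 bp and 867 bp in the control and 1438 bp and 1698 bp in the LSD1-LKO libraries, and its TSS lay in a gap in both LSD1-LKO libraries (563 bp and 303 bp). Rpsa, also known as the laminin receptor, had 1660 bp and 1892 bp in the control and 1600 bp and 1704 bp in the LSD1-LKO libraries, with a first-listed gap of 382 bp in control liver and 398 bp in that of LSD1-LKO mice.

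The genes on the X chromosome, Rpl10, Rps4x, Rpl36a and Rpl39, had covered lengths below the median of the set in each of the 4 libraries. Rpl10 had 288 bp and 394 bp in the control and 390 bp and 726 bp in the LSD1-LKO libraries, and its best control peak stood at the 35.4 percentile of the list. Rps4x had 622 bp and 1063 bp in the control and 521 bp and 745 bp in the LSD1-LKO libraries, at the 31.8 percentile in control. These compare with a median percentile of 80.5 over the 78 genes with a control peak. Rpl36a had 985 bp and 1615 bp in the control and 953 bp and 1500 bp in the LSD1-LKO libraries. Rpl39 had 1219 bp and 1571 bp in the control and 847 bp and 1085 bp in the LSD1-LKO libraries, and of the 4 genes it alone had groups that did not overlap.

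Ribosomal protein genes with and without an LSD1 peak were set side by side. The median covered length in control liver was 1484.5 bp at the 28 genes with and 1657 bp at the 54 genes without an LSD1 promoter peak. The promoter windows of the genes without a peak were also longer, with a median of 2152 bp against 2001 bp. Marked genes had the other order, 1642 bp with and 1298 bp without an LSD1 peak. The median difference, LSD1-LKO minus control, was −118.5 bp with and −195.5 bp without an LSD1 peak between the first-listed libraries. Between the second-listed libraries the order was the other one, −84 bp with and 0 bp without. A control gap was found at 7 of the 28 genes with and 20 of the 54 without one, and an LSD1-LKO gap at 13 and 27. Among marked genes a control gap was found at 21.6% with and 14.1% without an LSD1 peak, and an LSD1-LKO gap at 27.9% and 18.2%. The second-listed libraries had a control gap at 3 ribosomal protein genes with and 9 without an LSD1 peak, and an LSD1-LKO gap at 9 and 12. Among marked genes they had a control gap at 401 of 5090 with and 411 of 8463 without one. An LSD1-LKO gap was found there at 409 and 457 genes. Whether the difference between LSD1-LKO and control depended on LSD1 binding was not tested.

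Other genes of protein synthesis served for comparison. Of 14 further genes with TOP mRNAs, mostly translation factors, 8 had a gap in control and 10 in LSD1-LKO liver, and 9 had an LSD1 promoter peak, among them Eef1a1, Pabpc1 and Tpt1. The 20 genes of ribosome biogenesis, such as Fbl, Ncl and Polr1a, had a gap at 4 genes in control and 6 in LSD1-LKO liver, and their TSS was covered at 14 and 12. Of the 78 mitochondrial ribosomal protein genes, 10 had a gap in control and 17 in LSD1-LKO liver, and the TSS was covered at 57 (73.1%) and 49 (62.8%). In the second-listed libraries the order was the other one for the 14 TOP genes, with 6 gaps in control and 4 in LSD1-LKO liver. The biogenesis genes had 3 and 5 there, and the mitochondrial ribosomal protein genes 2 and 5. In both lists the share of cytosolic ribosomal protein genes with a gap thus lay between that of the translation factors and that of the mitochondrial ribosomal protein genes, a difference that was not tested. Of the ribosomal protein genes outside the naming rule, Fau and Rpl36al had a control gap, of 349 bp and 274 bp, and Rps3a1 and Rack1 had none.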

How the data were processed

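The series holds 12 ChIP-seq libraries of mouse liver. Per the labels and the study's methods, the authors aligned reads to mm10 with Bowtie2, called peaks with MACS2 against control libraries (labelled input, described as IgG) and intersected the calls of both libraries, with bedtools 2.25.0 among the tools named. The deposited lists give for each peak the fold enrichment (a ratio) and the −log10 p of the peak caller, and the highest listed p was 0.05. The names of the H3K4me2 peaks carry a processing tag in the first-listed libraries of both groups that the second-listed ones lack. Its part in the differences between libraries was not tested. 18 further value columns of single libraries (q-values, scores, summit offsets) were not used.

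Annotation came from GENCODE vM21 (21853 protein-coding genes outside the mitochondrial genome, 54361 starts) and sequence from RefSeq GRCm38. Peaks that overlapped or touched were merged, and an overlap of 1 bp counted. Python 3.11.15, pandas 2.3.3 and pysam 0.24.0 were used, and the interval functions were tested on simulated peaks. Samples were grouped by their titles. Each group has 2 libraries, so single genes were compared by an exact two-sided permutation test, and lists by counts and medians beside those of all genes. Nothing states that the 2 libraries of a group came from different mice. The genes and lists were chosen with earlier results of these data known. Named were Rps21 and the genes in the study's mitochondrial list, the 5 highest and 5 lowest LSD1 peaks, genes without a peak, the 5 lowest and highest differences in covered length, the 5 longest gaps, and groups by role. Genes named for their state or order in all 4 libraries, and the example of LSD1 overlap, were chosen after their values were seen. Alternatives were other promoter widths, start sites, thresholds, overlaps, libraries and merging distances. Values of single genes that the rule named or that met a listed criterion are in a few cases not reported here, and these genes stay in all counts.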

Additional observations from a re-analysis of the deposited data

How the results depend on the processing

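No paired analysis was possible because the lists carry no replicate numbers for their libraries, so the planned replicate block was not run. Each result was recomputed with other promoter widths, start sites, thresholds, overlaps, merging distances and libraries. The starts of all transcript types, and every alternative for a TSS inside a peak, were chosen after seeing the data. Of 93 recomputed values, 73 stayed within 1.5 times the reported count, or within 1 SD between the libraries of a list for a length, and 20 moved. The order of the groups turned in 2 cases: with p of 1e-05 or less in both libraries gaps were fewer in LSD1-LKO than in control liver, and with the second-listed library alone the median covered length was higher in LSD1-LKO liver. The cause was not tested where an alternative changes no number of genes or samples. With p of 1e-05 or less in both libraries, LSD1 promoter peaks fell to 4 genes and H3K4me2 gaps to 14 in control and 11 in LSD1-LKO liver, and the median covered length was 1411.5 bp and 862.5 bp. With the second-listed library alone, gaps numbered 12 in control and 21 in LSD1-LKO liver, the TSS was inside a peak at 48 LSD1-LKO genes, the median covered length was 1790 bp and 1824 bp and the median difference −4.5 bp. With promoters of 500 bp on either side the median covered length was 895.5 bp and 760.5 bp, and with 2 kb it was 2069 bp and 1729.5 bp with a median difference of −288 bp. In control liver it was 1460 bp with 1 principal TSS per gene, 1478.5 bp with the intersection of paired peaks and 1822.5 bp with the starts of all transcript types. With any TSS, 40 LSD1-LKO genes had a TSS inside a peak. Merging peaks within 100 bp of each other could change no count of gaps, because the shortest gap over all genes was 101 bp in each library. Its unchanged values are among the 73 that stayed. The second-listed library alone had to count as moved for every length. The SD was taken from the difference between the first- and second-listed libraries, which is always larger than that SD. Counts of genes with a promoter peak could hardly change with that library, because each entry joins a peak of both libraries. These counts are also among the 73. The lists give no read numbers, so how depth limits the gaps and missing peaks is unknown.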
